A study of Homo sapiens with 6 samples.

Results

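The genes described here are 37 genes of DNA replication and of entry into S phase other than the MCM helicase genes in T24 cells. T24 is a long-used laboratory line that came from a human carcinoma of the bladder. The 37 symbols were listed by role, and each matched 1 of the 58233 Ensembl gene rows in the deposited tables. The 2 groups were T24 cells stably carrying the vector (VEC, 3 libraries) and T24 cells stably carrying the constitutively active RhoC mutant Q63E (Q63E, 3 libraries), a form of the small GTPase that stays switched on. Both groups were made with lentivirus and selected with puromycin, and the labels do not say whether a population is 1 clone, how long it was grown, or whether replicates were separate cultures. The spread behind each p-value is therefore that among libraries and may be no more than technical. The comparison asks how transcript levels of cells with active RhoC differ from those with the vector.

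Replication begins in G1, when the origin recognition complex, CDC6 and CDT1 load inactive MCM helicases onto origins. At the start of S phase CDC45 and the GINS complex join MCM to make the working helicase, and primase with polymerase alpha lays the first primers. The RFC clamp loader then places the PCNA ring on DNA, where it holds polymerase delta, FEN1, LIG1 and chromatin assembly factor 1. Transcription of most of these genes peaks around the G1/S boundary under E2F factors, which cyclin E and its kinase release from the retinoblastoma proteins.

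The libraries' values added up to between 726929 and 769026, and RHOC lay between 217.6 and 232 in VEC and between 1726 and 1770 in Q63E. The mitochondrially encoded genes held 8.44% to 9.44% of a library's sum in VEC and 5.58% to 6.27% in Q63E. With the libraries scaled without them, 10 of the 37 members were lower and 2 higher, and RRM2 did not pass (adjusted p = 0.103). In that fit 1901 of all 14112 genes tested were lower and 1356 higher. Some markers of bladder epithelium moved with the groups: of the 8 tested 5 were higher in Q63E and 0 lower, and the list summed to 2138 to 2177 in VEC and 3379 to 3481 in Q63E. The risen genes were the keratins of simple epithelia KRT8 from 581 to 985, KRT7 from 1031 to 1454, KRT18 from 515 to 788 and KRT19 from 5.67 to 161 (group means), and PPARG, a regulator of urothelial differentiation, from 13.2 to 21.3. GATA3 and ELF3 had fold changes below 0 and did not pass. GATA3 was 1.79 ± 1.40 in VEC and 0.363 ± 0.352 in Q63E (adjusted p = 0.121). ELF3 was 3.52 ± 0.782 and 1.57 ± 0.968, with every Q63E library below every VEC library (adjusted p = 0.0679). FOXA1, at 3.72 and 4.28, did not pass either (adjusted p = 0.469). CDH1, KRT5 and UPK3A, markers of epithelium or of basal and mature urothelium, were listed at 0 in every library, and 7 of the 16 bladder epithelial markers stayed below 1. Of the markers of other cells, all 5 endothelial, 4 of 5 leukocyte and 5 of 6 fibroblast genes were below 1 in every library. The fifth leukocyte gene, CD68, a lysosomal protein of macrophages, was lower in Q63E (18.5 ± 0.909 to 10.1 ± 0.879, log2 fold change −0.82, adjusted p = 8.47e-04). It made up nearly all of the summed leukocyte list, 17.7 to 19.4 in VEC and 9.5 to 11.1 in Q63E, with PTPRC and CD3E listed at 0 throughout. The summed fibroblast list was 1.93 to 2.41 and 2.52 to 3.76. The part of these markers in the results on the members was not tested.

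Every member was measured above 1 in each library, the lowest being 1.09 for E2F2, and the values, taken as FPKM, are per transcript length, so that levels of genes can be set side by side. In VEC the most abundant were PCNA, RRM2 and TYMS. The spread within VEC was small: the coefficient of variation had a median of 4.93% over the members and ran from 0.322% for E2F1 to 45.3% for GINS4.

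The 37 members changed in both directions, with more falls than rises. In Q63E 10 of the 37 members were lower (27.0%) and 3 were higher (8.11%), where 14% of all 13346 genes tested were lower and 11.3% higher in limma at an adjusted p of 0.05. The lower members were PCNA, CDC45, RFC2, RFC3, FEN1, UNG, TYMS, CHAF1B, SLBP and E2F1, and the higher ones CDT1, RFC5 and RRM2. Among 59 further genes of the same pathway, described below, 4 were lower and 3 higher. Without VEC replicate 3, Q63E replicate 1 or Q63E replicate 3, the count of higher members was 1, CDT1. The median log2 fold change, a difference of log2(value + 1) between Q63E and VEC, was −0.13 over the members and −0.002 over all genes tested. The Q63E libraries lay below every VEC library for 13 members (background 22.8%) and above for 6 (background 21.1%), and the groups overlapped for the other 18. In whole populations of cells, fewer cells in S phase and less RNA per cell cannot be told apart.

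**Figure D1:**
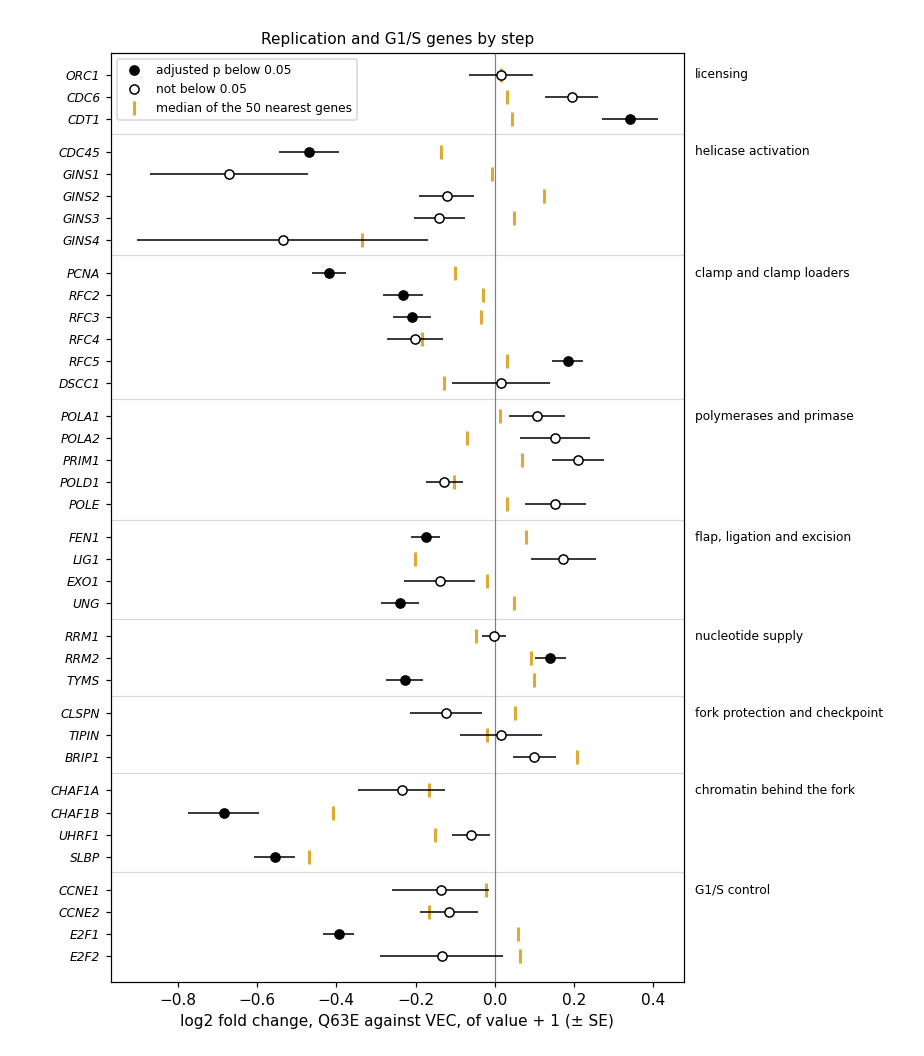
Log2 fold change of value + 1 (x axis, Q63E against VEC, bars ± SE) for the 37 members, ordered by step of replication. Filled circles passed the test (10 lower, 3 higher) and yellow ticks give the median of the 50 tested genes nearest on the chromosome, which for SLBP (−0.47) lies close to the gene's own −0.56.

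The members' values summed to between 1672 and 1687 in the VEC libraries and between 1514 and 1539.7 in the Q63E libraries. The median deviation from the VEC mean was −0.10 in Q63E library 1, −0.16 in library 2 and −0.09 in library 3, on the log2 scale, so that each Q63E library lay on the same side. Lists of related genes are given for comparison, with no test of a difference between lists. Among all genes tested 14% were lower and 11.3% higher. All 9 MCM genes had a fold change below 0 and 3 of them passed (MCM3, MCM6 and MCM10), with a median of −0.15. Of 28 genes of G2/M and mitosis 5 were lower and 1, AURKB, was higher, with a median of −0.06. Their sum lay between 2969 and 3039.5 in VEC and between 2791 and 2887 in Q63E.

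**Figure D2:**
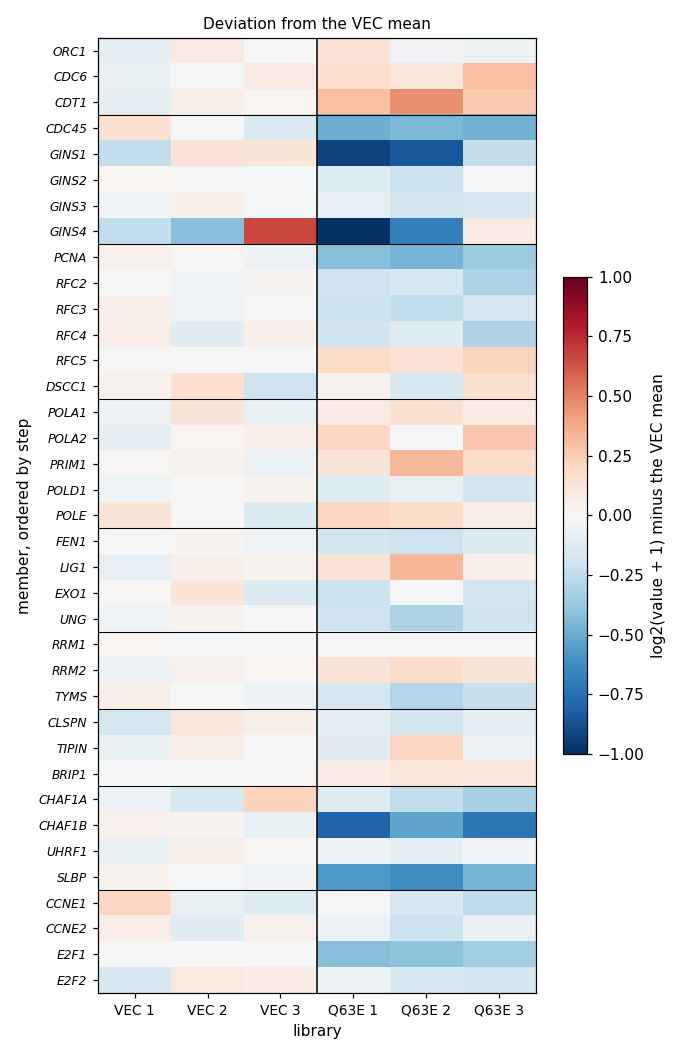
Log2 value + 1 of each member in each library minus its mean over the VEC libraries (colour, from −1 in blue to 1 in red). Libraries are columns and members are rows grouped by step. GINS1 and GINS4 differ among libraries of the same group, while PCNA, SLBP, CHAF1B, CDC45 and E2F1 are blue in all 3 Q63E libraries.

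Of the 4 genes that control entry into S phase, 1 fell, E2F1, and the other 3 did not pass. E2F1 encodes an activator of G1/S transcription (chromosome 20 from 33675683 to 33686404 on GRCh38, minus strand). Its value was 51.9, 51.6 and 51.6 in the VEC libraries and 38.2, 38.9 and 40.3 in the Q63E libraries. The groups stood well apart, with a mean of 51.7 ± 0.166 against 39.1 ± 1.11 (SD, n = 3 each), a fall by 24.3% (log2 fold change −0.39, SE 0.0391, adjusted p = 0.00101). The 50 tested genes nearest to it on the chromosome had a median log2 fold change of 0.06 (its neighbourhood median), on the other side of 0. E2F2, a second activator, was near the lower limit of what was tested, at 1.39 ± 0.229 and 1.18 ± 0.110, with overlapping groups (adjusted p = 0.570).

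The cyclin E genes, whose products drive the CDK2 kinase at the G1/S boundary, did not pass. CCNE1 was 6.72 ± 0.989 in VEC and 6.01 ± 0.639 in Q63E (adjusted p = 0.458). CCNE2 was 19.7 ± 1.32 and 18.1 ± 1.13 (adjusted p = 0.301), and its fold change of −0.11 lay beside a neighbourhood median of −0.16. In both genes the libraries of the groups overlapped.

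E2F-responsive promoters are known for a short GC-rich element close to the start, and the promoters of the members were searched for it as a description. RefSeq promoters on GRCh38.p14, 250 bases before to 50 after a start, matched 34 of the 37 genes with 44 promoters. The letters TTTCCCGC, TTTCGCGC, TTTGCCGC or TTTGGCGC on either strand were found in 20 of these 44 promoters (45.5%), against 3.31% of all 35116 promoters in the table and 4.38% of those with at least 49.7% G and C, the lowest content among the members. Genes with the element fell and rose, and a link with direction was not tested. Only the exact letters counted, so CDC45, which has TTTGGCGG close to 1 start, was placed among the genes without it. By gene, 5 of the 10 lower members had it, 1 of the 3 higher and 13 of the 21 that did not pass, and the median log2 fold change was −0.12 for the 19 genes with it and −0.14 for the 15 without. A match is only a run of letters, and the word CCAAT was likewise present in 54.5% of the members' promoters against 34.6% of all, TTTGAA or TTTAAA in 15.9% against 24%, and GGGCGG in 77.3% against 45.0%. Among promoters with at least 49.7% G and C the shares were 31.7%, 12.7% and 62.3%. The members' share of TTTGAA or TTTAAA was thus below that of all promoters but above that of these. Matches to different words may overlap in a promoter.

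The 150 bases before the start are shown for 4 members that have the element and passed the test, 3 of them lower and 1, CDT1, higher, with the matches in capitals (5′ to 3′ along the gene, RefSeq, GRCh38.p14).
E2F1 chr20:33686386-33686535 (minus strand): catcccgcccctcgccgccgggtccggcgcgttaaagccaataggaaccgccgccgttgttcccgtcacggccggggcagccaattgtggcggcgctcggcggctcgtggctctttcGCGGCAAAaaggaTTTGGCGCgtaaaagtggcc
PCNA chr20:5126623-5126772 (minus strand): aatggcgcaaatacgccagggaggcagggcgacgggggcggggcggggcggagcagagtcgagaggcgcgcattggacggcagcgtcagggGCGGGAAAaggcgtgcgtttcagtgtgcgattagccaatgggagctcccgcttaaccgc
TYMS chr18:657503-657652 (plus strand): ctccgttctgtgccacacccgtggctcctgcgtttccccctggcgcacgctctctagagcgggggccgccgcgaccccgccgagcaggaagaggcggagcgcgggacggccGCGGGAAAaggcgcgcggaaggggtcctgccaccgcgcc
CDT1 chr16:88803639-88803788 (plus strand): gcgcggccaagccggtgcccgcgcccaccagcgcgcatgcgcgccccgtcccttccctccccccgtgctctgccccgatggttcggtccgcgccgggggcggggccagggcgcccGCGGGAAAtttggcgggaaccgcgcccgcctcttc
E2F1 holds 2 matches, at bases −33 to −26 and −20 to −13 before its start. PCNA (−59 to −52), TYMS (−39 to −32) and CDT1 (−35 to −28) hold 1 match each, GCGGGAAA as read along the gene. Directly after its match CDT1 also has TTTGGCGG, which did not count. PCNA and TYMS were lower and CDT1 higher in Q63E, and a link of the letters with direction was not tested.

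**Figure D3:**
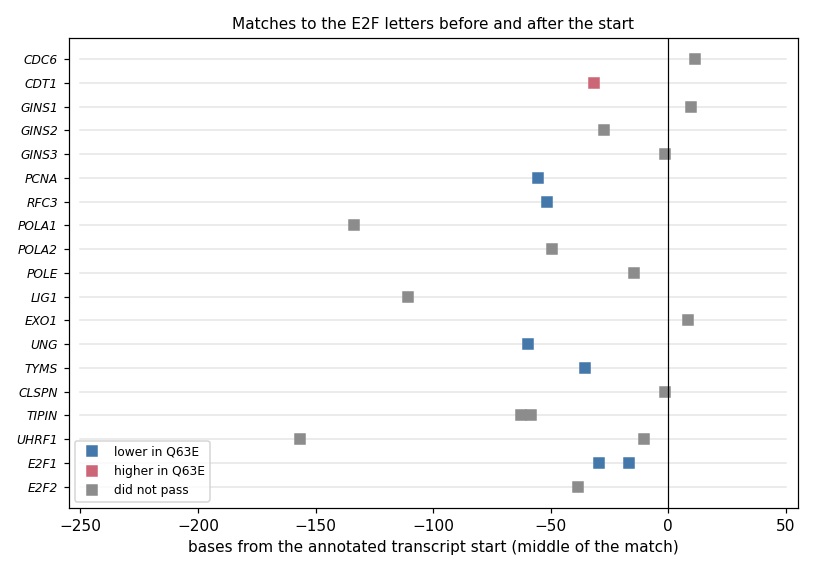
Position of each match to the E2F letters (x axis, bases from the annotated start, 0 marked by a line) in the 19 members that have one. Squares are blue for members lower in Q63E, red for higher and grey for those that did not pass; in the members that passed, the matches begin between −63 and −20.

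Of the 3 origin licensing genes 1 rose, CDT1, and none fell. CDT1, which brings MCM to origins and is destroyed once S phase begins (chromosome 16 from 88803213 to 88809258, plus strand), was 29.6, 33.0 and 32.0 in VEC and 39.0, 43.8 and 38.0 in Q63E. Every Q63E library was above every VEC library, and the rise from 31.6 ± 1.75 to 40.3 ± 3.13 was 27.6% (log2 fold change 0.34, SE 0.0706, adjusted p = 0.0157). CDC6, the ATPase that works with CDT1, was 29.1, 30.3 and 32.3 in VEC and 34.4, 33.1 and 37.8 in Q63E. The groups did not overlap, but the difference of 0.19 on the log2 scale did not pass (adjusted p = 0.0777). ORC1, the largest subunit of the origin recognition complex, overlapped between the groups, at 13.0 ± 0.880 and 13.2 ± 1.03 (adjusted p = 0.908).

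Of the 5 genes whose products turn the loaded MCM ring into a working helicase, CDC45 fell, and the other 4 had fold changes below 0 that did not pass. CDC45 (chromosome 22 from 19479459 to 19520612, plus strand) was 54.3, 48.5 and 44.0 in VEC and 34.5, 35.5 and 34.9 in Q63E. The Q63E libraries were tightly grouped below all VEC libraries, which themselves spread more widely. CDC45 fell by 28.6%, from 48.9 ± 5.18 to 35.0 ± 0.475 (log2 fold change −0.47, SE 0.0766, adjusted p = 0.00643). Its neighbours had a median of −0.14, and with that subtracted the value was −0.33 (adjusted p = 0.0305).

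The 4 GINS subunits, which form 1 complex, included 0 that passed in limma and 1, GINS1, with an unadjusted p below 0.05. GINS2 was 13.0 ± 0.165 in VEC and 11.9 ± 0.873 in Q63E (log2 fold change −0.12, adjusted p = 0.250). Its neighbours were higher, with a median of 0.12, and with that subtracted GINS2 was −0.25 and passed (adjusted p = 0.0378). GINS3 was 10.7 ± 0.350 and 9.58 ± 0.404 (log2 fold change −0.14, adjusted p = 0.169). For both, all Q63E libraries lay below all VEC libraries, by a small gap. GINS1 was 23.2, 30.4 and 30.2 in VEC and 14.1, 14.9 and 23.3 in Q63E. Q63E library 3 reached the lowest VEC library, and the difference of −0.67 just missed the threshold (SE 0.199, adjusted p = 0.0515). Without that library it was −0.89 (adjusted p = 0.0112). GINS4 was 16.6, 14.6 and 32.1 in VEC and 9.42, 12.0 and 21.1 in Q63E, so that libraries of 1 group differed more than the group means (log2 fold change −0.54, SE 0.367, adjusted p = 0.336). That value was −0.20 without VEC replicate 3, −0.30 without Q63E replicate 1 and −0.84 without Q63E replicate 3, and −0.20 with the neighbourhood median subtracted, none of which passed (adjusted p = 0.149 to 0.741).

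PCNA, the sliding clamp, had the highest level of all members in VEC and fell (chromosome 20 from 5114953 to 5126626, minus strand). Its value was 241, 238 and 225 in VEC and 175, 169 and 182 in Q63E. The lowest VEC library was well above the highest Q63E library, and the mean went from 235 ± 8.47 to 175 ± 6.22, a fall by 25.3% (log2 fold change −0.42, SE 0.0427, adjusted p = 0.00110). After subtraction of the neighbourhood median of −0.10 it was −0.32 (adjusted p = 0.00358). Annotated pseudogene copies of PCNA were listed at 0 in all libraries.

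Of the 4 small clamp loader subunits 2 fell, 1 rose and 1 did not pass. The sign of each fold change held in all 16 alternatives tried, but the calls did not. RFC2, RFC3, RFC4 and RFC5 are the small subunits that join a large one to open the PCNA ring. The large one, RFC1, is not a member and did not pass. It was 40.1 ± 5.92 in VEC and 31.3 ± 1.78 in Q63E (log2 fold change −0.34, adjusted p = 0.0575). Every Q63E library of RFC1 was below every VEC library, and its neighbourhood median was −0.24. RFC2 (chromosome 7 from 74231499 to 74254458, minus strand) was 42.0, 41.5 and 43.1 in VEC and 36.4, 37.3 and 33.8 in Q63E, a fall by 15.1% (log2 fold change −0.23, SE 0.0497, adjusted p = 0.0177). RFC3 (chromosome 13 from 33818049 to 33966558, plus strand) was 35.4, 33.3 and 33.7 in VEC and 29.3, 28.6 and 30.3 in Q63E, a fall by 13.9% (log2 fold change −0.21, SE 0.0472, adjusted p = 0.0209). RFC5 went the other way (chromosome 12 from 118013588 to 118033130, plus strand). It was 38.3, 38.1 and 37.9 in VEC and 43.4, 42.3 and 44.7 in Q63E, a rise of 14.0% (log2 fold change 0.18, SE 0.0397, adjusted p = 0.0180).

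These 3 changes were small and near the threshold. RFC2 lost the call without VEC replicate 3 (adjusted p = 0.0615), RFC3 without VEC replicate 1 or 3 or Q63E replicate 1 or 2 (0.0559 to 0.0658) and RFC5 without VEC replicate 3 or Q63E replicate 1 or 3 (0.0575 to 0.0596). RFC3 and RFC5 also lost it with the neighbourhood median subtracted (adjusted p = 0.0561 and 0.0509). RFC5 overlaps WSB2 on the opposite strand, which was 36.6 ± 1.87 in VEC and 30.9 ± 3.63 in Q63E, and the deposited values do not state a strand. RFC4 overlapped between groups, at 55.6 ± 3.86 and 48.2 ± 3.20 (adjusted p = 0.0826), and passed without VEC replicate 2 (0.0471). The gene overlaps the more highly expressed EIF4A2 on the opposite strand, which was 235 ± 12.1 in VEC and 239 ± 10.3 in Q63E (adjusted p = 0.801). With the neighbourhood median subtracted RFC4 was at −0.02 (adjusted p = 0.897). DSCC1, a subunit of the alternative CTF18 clamp loader, was 16.6 ± 2.27 and 16.7 ± 1.99 (adjusted p = 0.942).

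**Figure D4:**
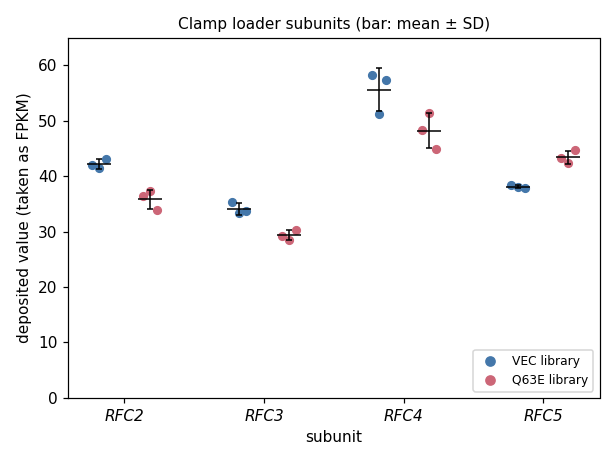
Deposited value, taken as FPKM, of the 4 small clamp loader subunits (x axis) in each library, 1 point per library, with the mean and SD of each group. RFC2 and RFC3 are lower in every Q63E library, RFC5 is higher, and RFC4 overlaps.

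Of the 5 polymerase and primase genes 0 passed in limma, 2 (PRIM1 and POLD1) had an unadjusted p below 0.05, and 4 had a fold change above 0. PRIM1, the catalytic subunit of primase, came closest, at 31.3, 31.6 and 29.4 in VEC and 33.5, 38.8 and 35.0 in Q63E. Its groups did not overlap (log2 fold change 0.21, SE 0.0657, adjusted p = 0.0603). PRIM1 overlaps the highly expressed NACA on the same strand (1166 ± 41.0 and 1169 ± 49.5), with which reads could be shared. POLA1 and POLA2, the catalytic and accessory subunits of polymerase alpha, had log2 fold changes of 0.11 and 0.15 (adjusted p = 0.316 and 0.257). POLE, the catalytic subunit of the leading-strand polymerase, was 36.6 ± 3.31 and 40.8 ± 2.34 (adjusted p = 0.202). POLD1, that of polymerase delta, was 48.2 ± 1.29 and 44.1 ± 1.85, with every Q63E library below every VEC library (log2 fold change −0.13, adjusted p = 0.0969).

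Of the enzymes that finish the lagging strand or excise bases, 2 of 4 fell. FEN1, the flap endonuclease that trims Okazaki fragments (chromosome 11 from 61792637 to 61797244, plus strand), was 84.0, 85.5 and 82.0 in VEC and 73.8, 72.5 and 76.2 in Q63E. The groups were apart, and the fall by 11.5% was among the smallest that passed (log2 fold change −0.17, SE 0.0374, adjusted p = 0.0174). The call was lost without VEC replicate 2 or Q63E replicate 1 or 2 (adjusted p = 0.0546 to 0.0581). FEN1 shares its place and strand with FADS2, a fatty acid desaturase gene, which rose from 12.4 ± 2.65 to 23.4 ± 0.157 (adjusted p = 0.00470), opposite to FEN1. UNG, the glycosylase that removes uracil from DNA (chromosome 12 from 109097574 to 109110992, plus strand), was 45.9, 48.4 and 47.2 in VEC and 40.6, 37.9 and 41.0 in Q63E. No Q63E library reached the VEC range (fall by 15.6%, log2 fold change −0.24, SE 0.0475, adjusted p = 0.0134).

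LIG1, the ligase that seals Okazaki fragments, was 30.7 ± 1.62 in VEC and 34.9 ± 3.60 in Q63E, with overlapping libraries (log2 fold change 0.17, adjusted p = 0.177). It lies among genes that were lower, with a neighbourhood median of −0.20, and with that subtracted its value was 0.37 (adjusted p = 0.0268). EXO1, an exonuclease of mismatch repair, was 18.8 ± 1.73 and 16.9 ± 1.39 (adjusted p = 0.299).

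Of the 3 genes of nucleotide supply TYMS fell, RRM1 did not pass, and RRM2 passed as higher with a call lost in 11 of 16 alternatives. TYMS, thymidylate synthase, makes the thymidine nucleotide used only for DNA (chromosome 18 from 657604 to 673578, plus strand). It was 165, 159 and 153 in VEC and 142, 130 and 136 in Q63E. All Q63E libraries were below all VEC libraries (fall by 14.6%, log2 fold change −0.23, SE 0.0468, adjusted p = 0.0153), although the 50 nearest genes had a median of 0.10. ENOSF1, which overlaps TYMS on the opposite strand, rose from 30.4 ± 5.14 to 43.8 ± 0.496 (adjusted p = 0.0189). TYMSOS, the noncoding RNA that starts next to TYMS on that strand, was 0.81, 0.8 and 35.6 in the Q63E libraries and 1.17 to 1.96 in VEC, so that 1 library stood apart, while TYMS in that library (136) lay between the other 2.

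RRM1 and RRM2 are the subunits of ribonucleotide reductase, the large one present through the cycle and the small one made in S phase. RRM1 was 98.2, 96.2 and 96.5 in VEC and 95.8, 97.3 and 97.4 in Q63E. Its means of 97.0 ± 1.10 and 96.8 ± 0.925 differed by less than the spread (log2 fold change −0.002, SE 0.0312, adjusted p = 0.967). RRM2 (chromosome 2 from 10120698 to 10131419, plus strand) was 182.5, 196 and 193 in VEC and 208, 215 and 207 in Q63E, a rise of 10.2% (log2 fold change 0.14, SE 0.0391, adjusted p = 0.0430). This call was lost when any single library was left out (adjusted p = 0.0527 to 0.118) and with the neighbourhood median of 0.09 subtracted (adjusted p = 0.506). In each VEC library PCNA was above RRM2 and in each Q63E library RRM2 was above PCNA.

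**Figure D5:**
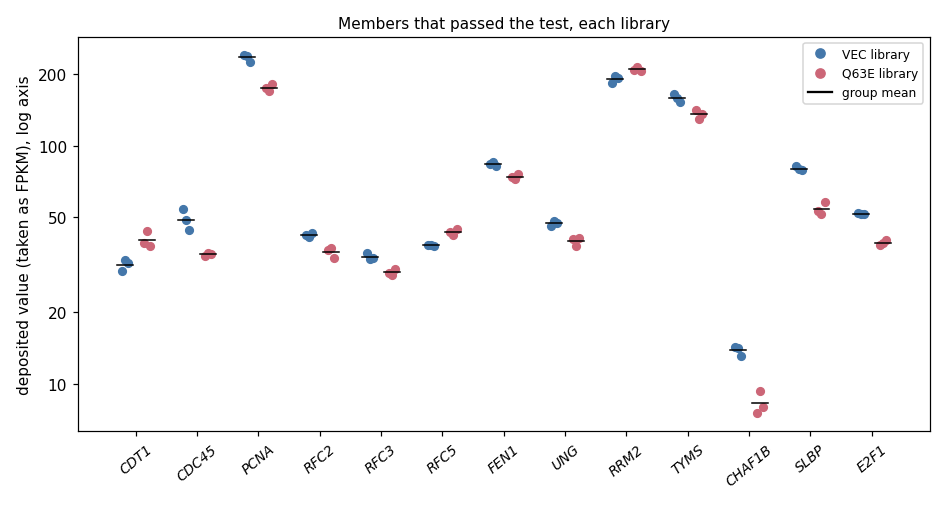
Deposited value, taken as FPKM, of the 13 members that passed the test (log axis), with 1 point per library and a line at each group mean. The groups do not overlap for any of the 13, and the order of PCNA and RRM2 is exchanged between them.

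Of the 3 genes of fork protection and checkpoint signalling 0 passed in limma, and 0 had an unadjusted p below 0.05. CLSPN, the adaptor through which stalled forks activate the CHK1 kinase, was 12.7 ± 1.44 in VEC and 11.5 ± 0.439 in Q63E (adjusted p = 0.375). TIPIN, the partner of TIMELESS at the fork, was 9.14 ± 0.451 and 9.29 ± 1.28 (adjusted p = 0.931). BRIP1, a DNA helicase of the Fanconi anaemia pathway, was 11.7 ± 0.151 and 12.6 ± 0.214, slightly higher in each Q63E library (log2 fold change 0.10, adjusted p = 0.232), beside a neighbourhood median of 0.21.

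The largest falls that passed were in genes that serve chromatin behind the fork. CHAF1B, the middle subunit of chromatin assembly factor 1, which places new histones (chromosome 21 from 36385378 to 36419015, plus strand), was 14.3, 14.1 and 13.1 in VEC and 7.51, 9.28 and 7.98 in Q63E. The groups were far apart, with a fall by 40.3% (log2 fold change −0.68, SE 0.0896, adjusted p = 0.00280). SLBP, which binds the stem-loop of histone mRNA and is needed for its use in S phase (chromosome 4 from 1692800 to 1712555, minus strand), was 82.0, 79.5 and 78.8 in VEC and 53.4, 51.6 and 57.8 in Q63E. SLBP fell by 32.3% (log2 fold change −0.56, SE 0.0509, adjusted p = 7.58e-04).

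Both genes lie where most neighbours were lower too. The 50 genes nearest to SLBP had a median of −0.47, and with it subtracted the value was −0.09 and did not pass (adjusted p = 0.339). For CHAF1B the neighbours had −0.41, and the value after subtraction was −0.28, just beyond the threshold (adjusted p = 0.0510). MORC3, which overlaps CHAF1B, was also lower (11.0 ± 0.510 to 8.18 ± 0.913, adjusted p = 0.0237). CHAF1A, the large subunit of the same factor, was 27.5 ± 4.01 and 23.2 ± 1.84 with overlapping groups (adjusted p = 0.170). UHRF1, which brings the maintenance methyltransferase DNMT1 to new DNA, was 43.2 ± 2.02 and 41.4 ± 0.997 (adjusted p = 0.412).

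Beyond the members, 59 further genes of the same pathway were read, among them the other origin complex subunits, RPA, accessory polymerase subunits, nucleotide enzymes, the remaining E2F factors and retinoblastoma proteins. Of these 4 were lower and 3 higher, with a median log2 fold change of −0.02. Both counts are below the shares among all genes tested, 14% lower and 11.3% higher. MTBP, a partner of TICRR in origin firing, had the largest change, from 21.5 ± 0.275 to 11.3 ± 0.405 (fall by 47.5%, log2 fold change −0.87, adjusted p = 2.01e-04). TFDP1, the partner with which E2F1 binds DNA, was 110, 130 and 125 in VEC and 97.3, 88.0 and 91.5 in Q63E, a fall by 24.3% (log2 fold change −0.40, adjusted p = 0.00921). CCNA2, the S-phase cyclin A2, fell from 58.3 ± 1.52 to 40.4 ± 1.31 (log2 fold change −0.52), beside a neighbourhood median of −0.41, and did not pass with that subtracted (−0.11, adjusted p = 0.117). The fourth, ASF1B, a histone chaperone, fell by 16.2% (adjusted p = 0.0398) and lost the call without VEC replicate 1 or 3 or Q63E replicate 2 or 3 (adjusted p = 0.0954 to 0.114). With its neighbourhood median of −0.13 subtracted it was −0.12 and did not pass (adjusted p = 0.390).

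The 3 risen genes were PRIM2, RBL2 and RPA1. PRIM2, the large subunit of primase and partner of PRIM1, rose from 11.7 ± 0.171 to 15.5 ± 0.906 (log2 fold change 0.38, adjusted p = 0.00692). RBL2, the retinoblastoma-related protein of resting cells, rose from 15.0 ± 0.745 to 19.5 ± 0.325 (log2 fold change 0.36, adjusted p = 0.00569). It just missed the threshold with the neighbourhood median subtracted (0.22, adjusted p = 0.0545). RPA1, the large subunit of the single-strand binding complex, rose from 37.0 ± 0.934 to 45.9 ± 1.11 (log2 fold change 0.30, adjusted p = 0.00344). For each of these 3 every Q63E library was above every VEC library.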

How the data were processed

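The authors deposited 1 table per library of total RNA (Illumina TruSeq, per the labels' protocols), with 58882 rows and 1 value to 2 decimals. HISAT2 2.1.0, Bowtie2 and GRCh38.p10 are listed in the submitters' processing notes, with no role. How reads were counted, and with which annotation, is not given in the sources used here. No header or label names a unit, and the values the authors deposited were treated as FPKM. Values were searched for steps of whole reads at many trial depths. At the best depth 26% to 32.9% of low values per library lay within 0.1 of a whole number. With no steps 20% would do so at 1 fixed depth, and the best of many trials can exceed that. The search cannot give the depth, so depth is unknown and no counting interval is given. The 649 rows with no gene name held 0.274% to 0.511% of a library's sum and were left out.

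Symbols came from a gene table and coordinates from GENCODE release 29 (GRCh38). Values were tested as log2(value + 1) for the 13346 genes with a mean of at least 1, with limma 3.58.1 (trend, two-sided) in R 4.3.3 on group alone. The p-values were adjusted by Benjamini-Hochberg over all genes tested, at 0.05. Fold changes on this scale understate those of low genes. The design had allowed for counts, and the replacement it named was used. The neighbourhood median is that of the 50 tested genes nearest on the chromosome; subtracting it per library was 1 of 16 alternatives. The steps were run on simulated data with 200 changed genes and noise drawn separately for each gene and library. That run cannot show whether replicates were separate cultures or which unit the values have. Every member is named. Of the further pathway genes the rule names the 6 past the threshold with the largest change. ASF1B, the seventh past it, and RFC1, which did not pass, were named after their values were seen. The result for 1 marker of the leukocyte list is not reported here. Overlapping genes were named after their values were seen. The members, lists and motifs were chosen with earlier results of these data known. Same-numbered libraries did not deviate together, with correlations of −0.04, −0.01 and −0.02.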

Additional observations from a re-analysis of the deposited data

How the results depend on the processing

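Over 16 alternatives, PCNA, CDC45, TYMS, E2F1 and CDT1 kept their direction and call in each, the other 8 called members lost the call in at least 1, and 6 of the 24 that did not pass did so in at least 1. The count of lower members was 8 to 11 and that of higher members 1 to 2 when single libraries were left out. Among all genes the fits without 1 library called 1325 to 1477 lower and 994 to 1153 higher. With the replicate number as a block (replicate block), 8 members were lower and 1 higher. Among all 13346 genes tested 1266 were lower and 942 higher in that fit. Of the 10 lower members 4 did not pass there (RFC2, RFC3, FEN1 and UNG, adjusted p = 0.0567 to 0.0752), nor did RFC5 and RRM2 (0.0691 and 0.0918), while GINS1 and GINS4 did (0.0356 and 0.0415); the libraries share only a number, and the cause was not tested. With the neighbourhood median subtracted 8 members were lower and 2 higher, and among all genes 1218 were lower and 1109 higher.

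Members near 0 changed sign. On leaving out 1 library, ORC1 ran from −0.043 to 0.061, DSCC1 from −0.088 to 0.104, TIPIN from −0.085 to 0.078 and RRM1 from −0.0081 to 0.0069 on the log2 scale. RRM1 was 0.0045 with median ratio scaling, 0.035 with quantile normalization and 0.046 with the neighbourhood subtracted. The latter also turned BRIP1 (−0.11), UHRF1 (0.091) and CCNE2 (0.050). The cause was not tested. Depth is unknown, so limits from counting cannot be given. At a threshold of 5 for the mean E2F2 was not tested.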
